A study of Mus musculus with 6 samples.

Results

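The EGF family of growth factors and the ERBB receptors that bind them were followed in L929 cells, a line of mouse fibroblasts, after co-culture with tumour cells. The 10 members were taken by gene symbol from the 21929 genes of the deposited table: 6 ligands that bind EGFR (Areg, Ereg, Hbegf, Tgfa, Btc and Epgn), the neuregulin gene Nrg1, and the receptor genes Egfr, Erbb2 and Erbb3. Each symbol stood for 1 row. The 3 Biotin-positive libraries (Biotin+) hold RNA of L929 cells that had interacted with tumour cells which the labels call MFCSTCL, and the 3 Biotin-negative libraries (Biotin-) hold RNA of L929 cells that had not. Every library comes from the same kind of co-culture and carries the same batch label, so no library of L929 cells grown alone was compared. How biotin was attached and how the cells were divided is not given in the labels, and the labels do not say that the libraries of a group were separate cultures, so the p-values reflect no more than library-to-library spread, which may be technical.

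EGF family ligands are made as membrane-anchored precursors and are released by metalloproteases such as ADAM17, after which they act on the cell that made them or on its neighbours. Amphiregulin, epiregulin, HB-EGF, TGF-alpha, betacellulin and epigen bind EGFR, and neuregulins bind ERBB3 and ERBB4. ERBB2 has no known ligand of its own and signals as a partner of the other receptors, and ERBB3 has little kinase activity and depends on such a partner. In stromal tissue, fibroblasts are known as a source of several of these ligands for neighbouring epithelial cells.

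Expression is given in FPKM, in which fragment numbers are divided by gene length and by library size, so levels of different genes can be set side by side. Library sums ran from 349753 to 356681 FPKM in Biotin-positive and from 337771 to 340511 FPKM in Biotin-negative libraries. The number of reads cannot be read from FPKM, so depth is unknown. Across the 11029 genes that reached 1 FPKM in at least 3 of the 6 libraries and were therefore tested, Pearson correlations of log2(FPKM + 1) between libraries were 0.994 to 0.996 within a group and 0.927 to 0.93 between the groups. Of 14 fibroblast markers 10 were tested, and 3 rose and 7 fell. Of all tested genes, 37.8% rose, 36.1% fell and 73.9% passed in either direction. Of the markers, Twist1 reached 1 FPKM in Biotin-positive libraries alone, so it could enter the test only by being higher there. The 14 markers summed to 2653 to 2726 FPKM in Biotin-positive and 4207 to 4438 FPKM in Biotin-negative libraries. Without Fn1 the other 13 summed to 2478 to 2551 FPKM in Biotin-positive and 2263 to 2329 FPKM in Biotin-negative libraries, the opposite direction. Vim was the largest term of that sum in both groups. The markers that rose were Vim, with 1418 ± 43.5 FPKM in Biotin-positive and 658 ± 14.04 FPKM in Biotin-negative cells, S100a4, with 722 ± 37.7 FPKM in Biotin-positive and 539 ± 15.7 FPKM in Biotin-negative cells (SD, n = 3 each), and Twist1, with 5.92 to 6.78 FPKM in Biotin-positive libraries and listed at 0 in each Biotin-negative one. Fn1, the fibronectin gene, stood at 172 ± 4.53 FPKM in Biotin-positive and 2017 ± 84.6 FPKM in Biotin-negative cells (SD, n = 3 each), while the fibroblast markers Thy1, Dcn and Lum stayed below 0.3 FPKM in every library. The other tested markers fell as well. Biotin-positive and Biotin-negative means were 24.6 and 300 FPKM for Col6a1, 58.2 and 208 for Col3a1, and 90.3 and 167 for Col1a1. They were 180 and 370 FPKM for Col1a2, 11.8 and 20.5 for Pdgfra, and 14.4 and 33.9 for Pdgfrb. In bulk RNA, fewer cells that express a gene and less RNA per cell cannot be told apart. A gene is said to rise or fall where Biotin-positive cells were above or below Biotin-negative ones with an adjusted p under 0.05 in limma on log2(FPKM + 1) with p-values adjusted by Benjamini-Hochberg across every gene tested.

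Of the 10 members, 6 were tested and all 6 of these rose: Areg, Ereg, Hbegf, Btc, Nrg1 and Erbb2. Of all tested genes, 37.8% rose, 36.1% fell and 73.9% passed in either direction, so a passed test alone sets a gene little apart here. The groups did not overlap for any of the 6, as for 76.9% of all tested genes. A rise of at least 1 on the log2 scale was seen for 3 members, Areg, Ereg and Nrg1, and for 5.29% of all tested genes. Areg and Nrg1 reached 1 FPKM in Biotin-positive libraries alone, so they could enter the test only by being higher there. The other 4 members, Tgfa, Epgn, Egfr and Erbb3, did not exceed 0.309 FPKM in any library and were not tested.

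**Figure D1:**
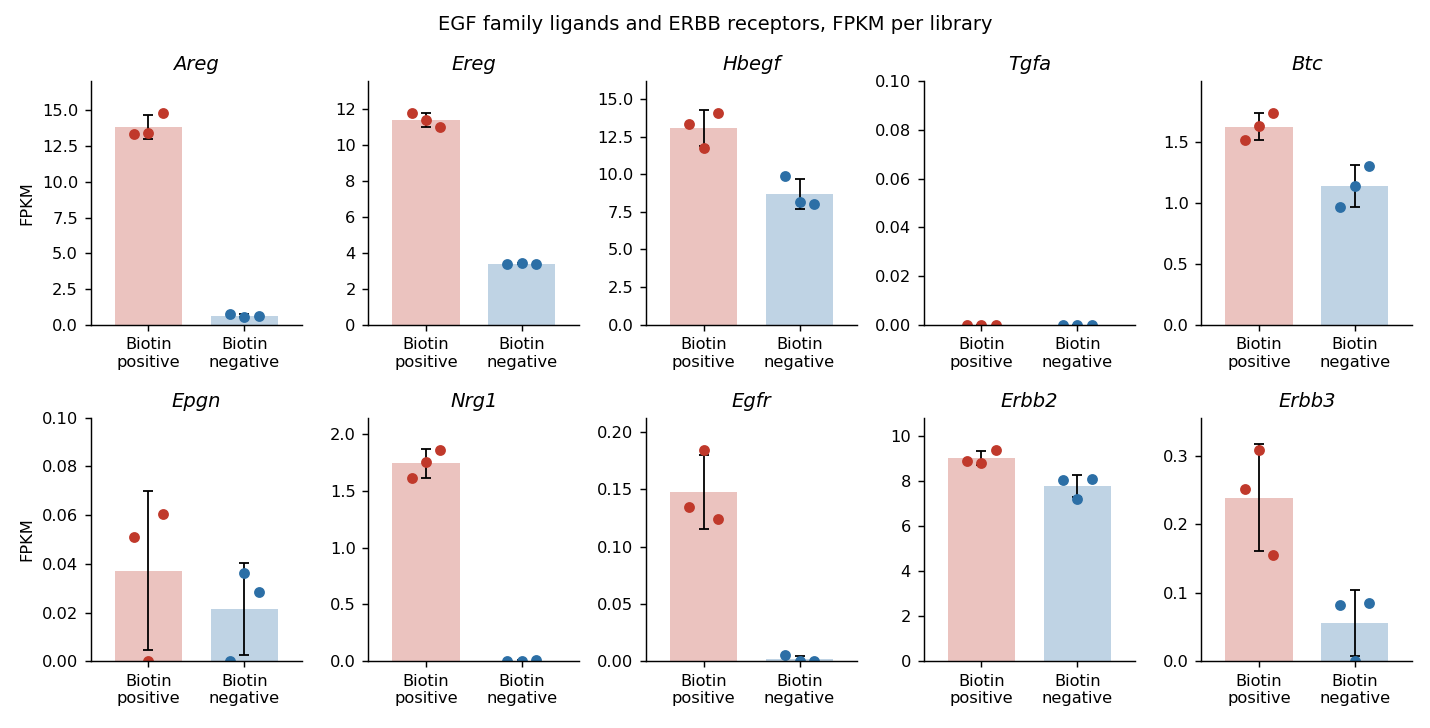
FPKM of the 10 members in each library (points), with the group mean (bar) and SD over 3 libraries (error bar), Biotin-positive in red and Biotin-negative in blue; each panel has its own axis from 0. Areg and Ereg show the largest separations in FPKM, Nrg1 stands out from Biotin-negative values near 0, Erbb2 is near 8 to 9 FPKM in both groups, Egfr does not exceed 0.185 FPKM and Tgfa is at 0 throughout.

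Areg had the largest rise of the members. It encodes amphiregulin, a ligand of EGFR alone among the ERBB receptors, and human AREG is a described target gene of YAP, the coactivator named in the title of the series. Areg stood at 13.3, 13.4 and 14.8 FPKM in the Biotin-positive libraries, against 0.762, 0.560 and 0.609 FPKM in the Biotin-negative ones. All Biotin-positive libraries were far above all Biotin-negative ones, and the groups did not overlap. The group means were 13.9 ± 0.848 FPKM in Biotin-positive and 0.643 ± 0.105 FPKM in Biotin-negative cells (SD, n = 3 each), a ratio of 21.5, with a log2 difference of 3.18 (SE 0.0706, limma adjusted p = 5.27e-09). This difference ranked 18 from the highest of the 11029 tested genes, a set that Areg entered only through its Biotin-positive values. With no filter, its limma adjusted p was 6.90e-07. In Biotin-positive cells Areg was above 78.0% of all genes in the table, and in Biotin-negative cells above 49.5%.

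The promoter of Areg is shown because this ligand moved most, with those of Egfr and Erbb2 as the receptor gene near 0 and the receptor gene with the highest level. Each window runs from 250 bases before to 50 bases after the start of the RefSeq gene (GRCm38.p6, plus strand in each case), in lower case with motif matches in capitals. The Areg window lies at chr5:91139349-91139648, the Egfr window at chr11:16751953-16752252 and the Erbb2 window at chr11:98412234-98412533.
Areg: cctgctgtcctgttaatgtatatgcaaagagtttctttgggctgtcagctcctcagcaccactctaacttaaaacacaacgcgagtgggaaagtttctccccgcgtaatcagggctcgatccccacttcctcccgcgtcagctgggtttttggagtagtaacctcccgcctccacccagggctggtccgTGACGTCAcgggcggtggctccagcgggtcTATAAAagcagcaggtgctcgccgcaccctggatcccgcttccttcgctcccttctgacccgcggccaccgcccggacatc
Egfr: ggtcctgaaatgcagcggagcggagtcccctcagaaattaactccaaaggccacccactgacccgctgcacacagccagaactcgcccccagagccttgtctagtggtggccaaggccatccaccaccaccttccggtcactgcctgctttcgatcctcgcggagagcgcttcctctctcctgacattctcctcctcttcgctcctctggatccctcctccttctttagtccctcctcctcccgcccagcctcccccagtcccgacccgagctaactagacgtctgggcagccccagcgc
Erbb2: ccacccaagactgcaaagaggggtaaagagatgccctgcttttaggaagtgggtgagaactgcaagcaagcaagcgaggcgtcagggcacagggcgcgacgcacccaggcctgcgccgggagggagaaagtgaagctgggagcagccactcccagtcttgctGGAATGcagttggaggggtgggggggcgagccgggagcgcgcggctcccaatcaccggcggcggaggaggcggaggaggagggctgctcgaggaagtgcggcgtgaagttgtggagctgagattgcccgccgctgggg
Of the 10 members 6 had a promoter in the RefSeq table. The letters searched on both strands were GGAATG for TEAD, the DNA-binding partner of YAP, TGANTCA for AP-1, TGACGTCA for the cAMP response element (CRE), and TATAAA for the TATA box. The Areg window holds a CRE at positions -61 to -54 and a TATA box at positions -31 to -26 relative to the start. A CRE match was found in 1.79% and a TATA box match in 13.6% of 32851 promoter windows of the same length. Neither GGAATG, found in 14.7% of windows, nor TGANTCA, found in 7.81%, occurred in the Areg window. The Egfr window held none of the 4 motifs, and the Erbb2 window held 1 GGAATG at positions -88 to -83. The GC content was 59.3% for Areg, 62.3% for Egfr and 66% for Erbb2, beside a median of 52.7% over all windows. These matches describe the letters of the windows and say nothing about binding in these cells.

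Ereg, which encodes epiregulin, a ligand of EGFR and ERBB4, had the next largest rise among the ligands of EGFR. It stood at 11.8, 11.4 and 10.98 FPKM in Biotin-positive libraries and at 3.39, 3.45 and 3.35 FPKM in Biotin-negative ones. The groups did not overlap and the libraries of each group lay close together. The means were 11.4 ± 0.401 FPKM in Biotin-positive and 3.40 ± 0.0496 FPKM in Biotin-negative cells (SD, n = 3 each), a ratio of 3.35 and a log2 difference of 1.49 (SE 0.0507, limma adjusted p = 4.38e-08). A gene on the opposite strand, Gm19610, shares 3.42% of the exon bases of Ereg, and the strandedness of the counting is not given in the labels.

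Hbegf, which encodes heparin-binding EGF-like growth factor, a ligand of EGFR and ERBB4, rose by a smaller ratio from a higher Biotin-negative level. It stood at 13.3, 11.8 and 14.1 FPKM in Biotin-positive libraries and at 9.86, 8.16 and 8.05 FPKM in Biotin-negative ones. The lowest Biotin-positive library was above the highest Biotin-negative one. The means were 13.1 ± 1.19 FPKM in Biotin-positive and 8.69 ± 1.02 FPKM in Biotin-negative cells (SD, n = 3 each), a ratio of 1.503 and a log2 difference of 0.54 (SE 0.0874, limma adjusted p = 0.000529).

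Btc, which encodes betacellulin, another ligand of EGFR and ERBB4, was low in both groups. It stood at 1.51, 1.62 and 1.74 FPKM in Biotin-positive libraries and at 0.964, 1.14 and 1.302 FPKM in Biotin-negative ones. The groups did not overlap, but the gap between them was narrower than the range within either group. The log2 difference was 0.30 (SE 0.0764, limma adjusted p = 0.00686), and 73.5% of the tested genes had a smaller one.

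The remaining 2 EGFR ligands gave next to no signal. Tgfa, which encodes TGF-alpha, was listed at 0 in all 6 libraries. Epgn, which encodes epigen, was listed at 0.0512, 0 and 0.0604 FPKM in Biotin-positive libraries and at 0, 0.0363 and 0.0283 FPKM in Biotin-negative ones. These groups overlapped (exact two-sided permutation p = 0.6), and since the depth is unknown, values of this size do not show whether the transcript was present.

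Nrg1, which encodes neuregulin 1, a ligand of ERBB3 and ERBB4, was all but absent from Biotin-negative libraries. It stood at 1.61, 1.75 and 1.86 FPKM in Biotin-positive libraries, against 0, 0.00677 and 0.00867 FPKM in Biotin-negative ones. No Biotin-negative library came near any Biotin-positive one. Nrg1 was tested only because of its Biotin-positive values, and with no filter its limma adjusted p was 1.55e-06. The log2 difference was 1.44 (SE 0.0633, limma adjusted p = 1.72e-07) with the pseudocount of 1 FPKM, and 4.13 with a pseudocount of 0.1 FPKM, so the size of this rise rests on the pseudocount, and no ratio is given against values so close to 0. The opposite-strand gene Gm26578 shares 4.66% of the exon bases of Nrg1. Of the family genes outside the 10 members, none of Egf, Nrg2, Nrg3, Nrg4 and Erbb4 reached testing. Egf, the gene of epidermal growth factor itself, averaged 0.453 ± 0.161 FPKM in Biotin-positive and 0.593 ± 0.0406 FPKM in Biotin-negative cells (SD, n = 3 each), and Nrg3 was listed at 0 in every library. Nrg2 averaged 0.336 FPKM in Biotin-positive and 0.00810 FPKM in Biotin-negative cells, and Nrg4 0.317 and 0.536 FPKM, each without overlap. With no filter, the limma adjusted p was 0.00127 for Nrg2 and 0.0222 for Nrg4.

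Erbb2 was the one receptor gene of the family with a clear level in L929 cells. It stood at 8.88, 8.80 and 9.38 FPKM in Biotin-positive libraries and at 8.04, 7.18 and 8.06 FPKM in Biotin-negative ones. The groups did not overlap but lay close. The means were 9.02 ± 0.314 FPKM in Biotin-positive and 7.76 ± 0.5003 FPKM in Biotin-negative cells (SD, n = 3 each), a ratio of 1.16. The log2 difference was 0.20 (95% confidence interval 0.0622 to 0.328, limma adjusted p = 0.0143). Rescaling the libraries to an equal FPKM sum ended the call (log2 difference 0.14, limma adjusted p = 0.0579), and so did leaving out Biotin-positive replicate 3 (0.17, adjusted p = 0.0546). Its adjusted p ranged from 0.0117 to 0.0579 over 16 alternatives.

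Egfr, the receptor gene that 6 of the ligands act through, was listed at 0.135, 0.185 and 0.124 FPKM in Biotin-positive libraries, and at 0.00518, 0 and 0 FPKM in Biotin-negative ones. The Biotin-positive libraries were all above the Biotin-negative ones, at a mean level above 42.3% of all genes in the table in Biotin-positive and above 28.2% in Biotin-negative cells. Erbb3 was listed at 0.252, 0.309 and 0.155 FPKM in Biotin-positive libraries and at 0.0821, 0 and 0.0858 FPKM in Biotin-negative ones, likewise without overlap. The exact two-sided permutation p was 0.1 for Egfr and for Erbb3, the smallest that 3 against 3 libraries allow. With no filter on low values, limma called 28.4% of 17058 genes higher, and the adjusted p was 0.000454 for Egfr, 0.0116 for Erbb3 and 0.55 for Epgn. Erbb4 did not exceed 0.00183 FPKM.

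The summed ligand level differed between the groups by a larger ratio than the summed receptor level. The FPKM of the 6 EGFR-binding ligands summed to 40.0, 38.2 and 41.7 in the Biotin-positive libraries and to 14.98, 13.35 and 13.33 in the Biotin-negative ones, a ratio of the means of 2.88. The FPKM of Egfr, Erbb2 and Erbb3 summed to 9.27, 9.29 and 9.66 in Biotin-positive and to 8.12, 7.18 and 8.15 in Biotin-negative libraries, a ratio of 1.20. Summed ligand FPKM per Erbb2 FPKM was therefore 4.43 ± 0.0833 in Biotin-positive and 1.79 ± 0.120 in Biotin-negative cells (SD, n = 3 each). Erbb2, which has no known ligand of its own, made up 95.9 ± 1.21% of the receptor sum in Biotin-positive and 99.3 ± 0.614% in Biotin-negative cells. Egfr averaged 0.148 FPKM in Biotin-positive and 0.00173 FPKM in Biotin-negative cells. The receptor sum and the ratio to Erbb2 therefore do not measure how much receptor is available to these ligands. These sums describe the members, which were chosen with earlier results known, and were not tested.

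The make-up of the ligand sum differed between the groups as well. Areg made up 34.7 ± 1.20% of it in Biotin-positive and 4.61 ± 0.445% in Biotin-negative cells, and Hbegf 32.6 ± 1.61% in Biotin-positive and 62.4 ± 2.96% in Biotin-negative cells (SD, n = 3 libraries each). Ereg held 28.5 ± 1.92% in Biotin-positive and 24.5 ± 1.67% in Biotin-negative cells. Of the difference between the summed means, Areg accounted for 50.7%, Ereg for 30.6%, Hbegf for 16.8% and Btc for 1.87%. The FPKM of Areg per FPKM of Hbegf was 1.06 ± 0.0712 in Biotin-positive and 0.0738 ± 0.00459 in Biotin-negative cells (SD, n = 3 each).

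**Figure D2:**
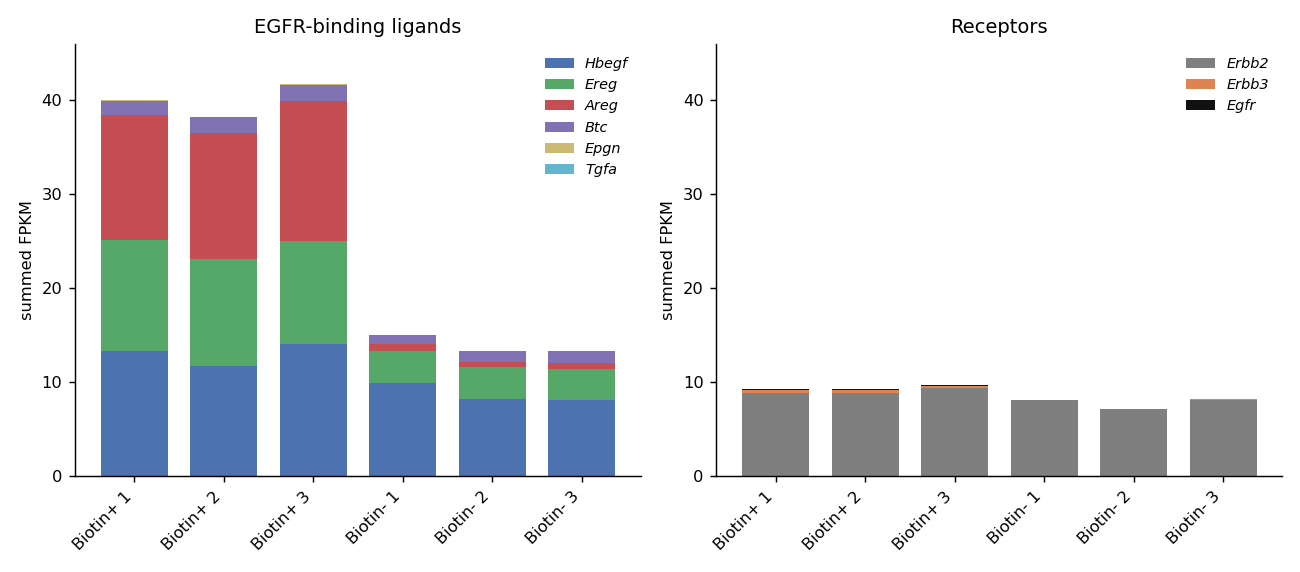
Summed FPKM of the 6 EGFR-binding ligands (left) and of 3 ERBB receptors (right) in each library, stacked by gene on the same scale, Biotin-positive libraries first. The ligand sums lie between 38.2 and 41.7 FPKM in Biotin-positive and between 13.3 and 14.98 FPKM in Biotin-negative libraries, and the receptor sums, nearly all Erbb2, between 7.18 and 9.66 FPKM in all 6.

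The order of the levels differed between the groups. In Biotin-positive cells the order was Areg, Hbegf, Ereg, Erbb2, Nrg1, Btc, Erbb3, Egfr, Epgn and Tgfa, and the ranges over libraries overlapped between Areg and Hbegf, Hbegf and Ereg, Nrg1 and Btc, Erbb3 and Egfr, and Epgn and Tgfa. In Biotin-negative cells it was Hbegf, Erbb2, Ereg, Btc, Areg, Erbb3, Epgn, Nrg1, Egfr and Tgfa. There the ranges of Hbegf and Erbb2 overlapped, as did those of each neighbouring pair from Erbb3 down to Tgfa. Areg was thus at the top with Hbegf in Biotin-positive cells and below Hbegf, Erbb2, Ereg and Btc in Biotin-negative ones.

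**Figure D3:**
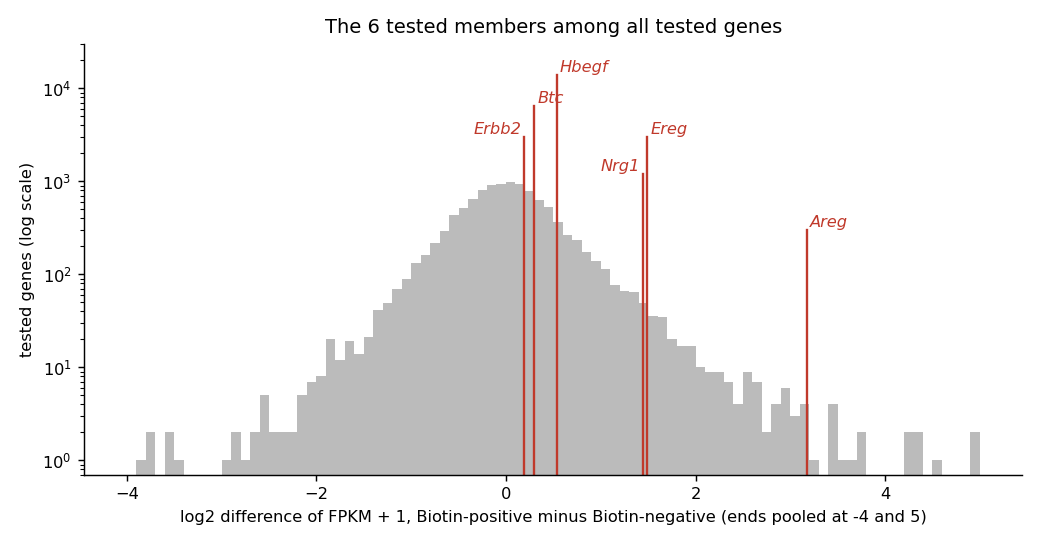
Log2 differences of FPKM + 1, Biotin-positive minus Biotin-negative, over the 11029 tested genes (grey, number of genes on a log axis), with the 6 tested members as red lines whose height only spaces the labels. Erbb2 (0.20) and Btc (0.30) lie inside the bulk of the genes, Nrg1 (1.44) and Ereg (1.49) in the upper flank and Areg (3.18) in the far upper tail.

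In the mouse genome 4 of the ligand genes lie together on chromosome 5. In the coordinates of the deposited table, which are those of GRCm38, Epgn spans chr5:91027464-91035215, Ereg chr5:91074622-91093646, Areg chr5:91139599-91148432 and Btc chr5:91357261-91402994, and no other gene of the table lies in the 376 kb between the start of Epgn and the end of Btc. Within this cluster Areg and Ereg, which are neighbours, had the large rises, Btc a small one, and Epgn stayed at or below 0.0604 FPKM. The nearest gene of the table before Epgn is Mthfd2l, which encodes a mitochondrial folate enzyme. It stood at 13.2, 13.5 and 13.04 FPKM in Biotin-positive and at 10.2, 16.3 and 11.7 FPKM in Biotin-negative libraries, with overlap between the groups (log2 difference 0.08, limma adjusted p = 0.606). The nearest gene after Btc, Parm1, did not exceed 0.120 FPKM. The other members lie apart from the cluster, Egfr at chr11:16752203-16918158, Erbb2 at chr11:98412470-98437716, Erbb3 at chr10:128567523-128589652, Nrg1 at chr8:31814551-32884797, Tgfa at chr6:86195223-86275719 and Hbegf at chr18:36504927-36515805.

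**Figure D4:**
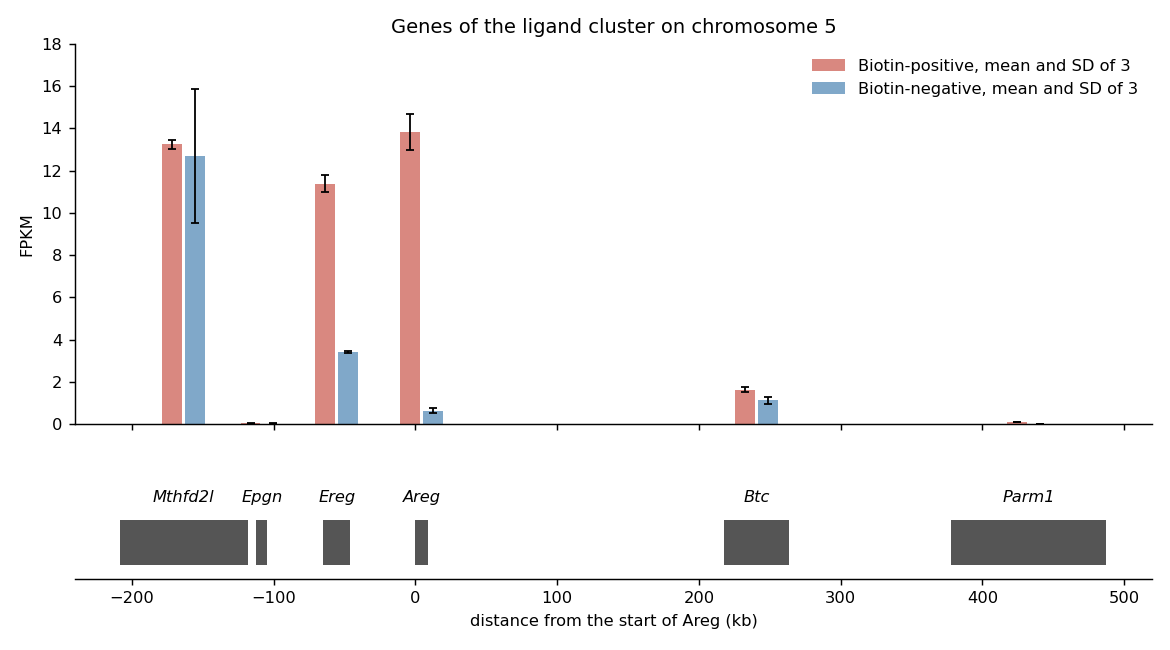
FPKM of the genes of the ligand cluster and of the nearest gene on each side (top; mean with SD over 3 libraries, Biotin-positive in red left of Biotin-negative in blue) above the gene bodies to scale (bottom), as distance in kb from the start of Areg. The large differences are at Ereg (11.4 and 3.40 FPKM) and Areg (13.9 and 0.643 FPKM), while Mthfd2l overlaps between the groups and Epgn stays near 0.

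By Euclidean distance of log2(FPKM + 1) over the 6 libraries, the tested genes most like Areg were Siglecg, a sialic acid-binding lectin gene (distance 0.576), the cell adhesion gene Mcam (0.790) and the small GTPase gene Rras2 (0.876). Siglecg averaged 13.7 ± 0.897 FPKM in Biotin-positive and 0.904 ± 0.265 FPKM in Biotin-negative cells (SD, n = 3 each). For Egfr the nearest tested genes, Luzp4, Fhdc1 and Arhgef16, were at distances of 1.41 to 1.49 and averaged 1.01 to 1.08 FPKM in Biotin-positive cells, well above Egfr, since no tested gene is as low.

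Of 8 tested genes of ligand shedding and trafficking, 5 fell, 1 rose and 2 did not pass, with a median log2 difference of -0.25, against 0.01 over all tested genes. The share that passed in either direction, 75%, was near the 73.9% of all tested genes, and the share that fell was 62.5%, beside 36.1% of all. The share that rose was 12.5%, beside 37.8% of all. Adam17, the main sheddase of amphiregulin, epiregulin, HB-EGF and TGF-alpha, stood at 20.7 FPKM in each of the 3 Biotin-positive libraries, against 37.2, 36.1 and 36.9 FPKM in the Biotin-negative ones. The fall was uniform over libraries (log2 difference -0.80, limma adjusted p = 1.10e-07). Adam10, the main sheddase of betacellulin, averaged 23.0 ± 0.442 FPKM in Biotin-positive and 22.2 ± 0.836 FPKM in Biotin-negative cells (SD, n = 3 each) and did not pass (limma adjusted p = 0.302). Rhbdf1, which encodes iRhom1, a cofactor that carries ADAM17 to the cell surface, fell to 22.1 ± 0.6005 FPKM in Biotin-positive cells, against 33.0 ± 2.17 FPKM in Biotin-negative cells (SD, n = 3 each), while its relative Rhbdf2 averaged 13.6 FPKM in Biotin-positive and 13.9 FPKM in Biotin-negative cells and did not pass. Frmd8, whose product stabilises the iRhom and ADAM17 complex, was the gene of the list that rose, to 13.8 ± 0.462 FPKM in Biotin-positive cells, against 7.18 ± 0.571 FPKM in Biotin-negative cells (SD, n = 3 each). Adam19 fell to 1.57 FPKM in Biotin-positive, against 4.01 FPKM in Biotin-negative cells, and Adam9 to 48.7 FPKM, against 59.2 FPKM.

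Of 19 genes of the ERBB adaptors and the RAS-ERK core, all tested, 7 rose, 5 fell and 7 did not pass (median log2 difference 0.02). These are 36.8% higher and 26.3% lower, near or below the 37.8% and 36.1% of all tested genes, so the counts do not set the list apart. The adaptor genes Grb2 and Shc1 did not pass. Map2k1, which encodes the kinase MEK1, averaged 70.2 ± 1.28 FPKM in Biotin-positive and 45.8 ± 0.611 FPKM in Biotin-negative cells (SD, n = 3 each; log2 difference 0.60, limma adjusted p = 3.40e-07), and the phosphatase gene Ptpn11 averaged 43.3 FPKM in Biotin-positive and 30.7 FPKM in Biotin-negative cells. Ksr1, a scaffold of the kinase cascade, fell to 2.58 FPKM in Biotin-positive cells, against 6.32 FPKM in Biotin-negative cells, and the phospholipase gene Plcg1 to 14.5 FPKM, against 22.8 FPKM.

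Of 18 tested genes that dampen ERBB or ERK signalling, 5 rose, 6 fell and 7 did not pass (median log2 difference 0.02). The shares, 27.8% higher and 33.3% lower, were below those of all tested genes, 37.8% and 36.1%. The ERK phosphatase genes did not move together. Dusp5 rose to 7.58 ± 0.410 FPKM in Biotin-positive cells, against 2.58 ± 0.346 FPKM in Biotin-negative cells. Dusp4 rose to 51.4 ± 1.901 FPKM in Biotin-positive cells, against 25.1 ± 1.21 FPKM in Biotin-negative cells (SD, n = 3 each). Dusp6, named after its values were seen, fell to 13.99 FPKM in Biotin-positive cells, against 17.3 FPKM in Biotin-negative cells. Spry4, a Sprouty inhibitor of the pathway, fell to 2.63 ± 0.227 FPKM in Biotin-positive cells, against 6.85 ± 0.299 FPKM in Biotin-negative cells, and Cblb, a ubiquitin ligase gene of receptor turnover, to 2.51 FPKM, against 5.38 FPKM. Errfi1, named after its values were seen, encodes an inhibitor that binds the EGFR kinase directly and fell to 8.78 FPKM, against 14.1 FPKM.

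Of 18 tested transcripts known to respond to ERK signalling, 12 rose and 6 fell, with a median log2 difference of 0.67, and each passed, beside 73.9% of all tested genes. The share that rose was 66.7%, beside 37.8% of all, and the share that fell 33.3%, near the 36.1% of all. Fosb was the 1 gene that reached 1 FPKM in Biotin-positive libraries alone. Ier3, an immediate early gene, rose to 89.8 ± 2.34 FPKM in Biotin-positive cells, against 30.0 ± 0.563 FPKM in Biotin-negative cells (SD, n = 3 each; log2 difference 1.55, limma adjusted p = 4.14e-09). Plaur, the urokinase receptor gene, rose to 59.4 ± 2.19 FPKM in Biotin-positive cells, against 22.3 ± 0.999 FPKM in Biotin-negative cells (SD, n = 3 each). Against this direction, the transcription factor genes Egr1 and Etv1 fell, Egr1 to 13.3 ± 0.567 FPKM in Biotin-positive cells, against 41.4 ± 0.356 FPKM in Biotin-negative cells, and Etv1 to 3.73 ± 0.234 FPKM, against 12.8 ± 2.64 FPKM (SD, n = 3 each). Myc, the most abundant of the list over both groups together, averaged 148 FPKM in Biotin-positive and 184 FPKM in Biotin-negative cells, and in Biotin-positive cells alone the cyclin D1 gene Ccnd1 was higher, at 152 FPKM. Many other signals act on these genes, so the list does not measure ERBB activity.

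Of 14 tested genes of receptor endocytosis, 8 rose, 2 fell and 4 did not pass (median log2 difference 0.23). The share that passed in either direction, 71.4%, was near the 73.9% of all tested genes. The share that rose was 57.1%, beside 37.8% of all, and the share that fell 14.3%, beside 36.1% of all. The number that fell was 1 without Biotin-negative replicate 1, without Biotin-positive replicate 2 or without Biotin-positive replicate 3. Sh3kbp1, the gene of the CBL-binding adaptor CIN85, had the largest change of the list. It stood at 7.86, 7.92 and 10.1 FPKM in Biotin-positive libraries and at 27.0, 38.7 and 36.8 FPKM in Biotin-negative ones, with a log2 difference of -1.86 (limma adjusted p = 3.61e-06). Tsg101, a gene of endosomal sorting, averaged 39.1 FPKM in Biotin-positive and 25.8 FPKM in Biotin-negative cells, Rab11a, a GTPase of recycling endosomes, 25.3 FPKM in Biotin-positive and 17.4 FPKM in Biotin-negative cells, and the clathrin adaptor gene Ap2a1 35.8 FPKM in Biotin-positive and 25.6 FPKM in Biotin-negative cells. Rab7, a GTPase of late endosomes, was the most abundant, with 143 FPKM in Biotin-positive and 116 FPKM in Biotin-negative cells.

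**Figure D5:**
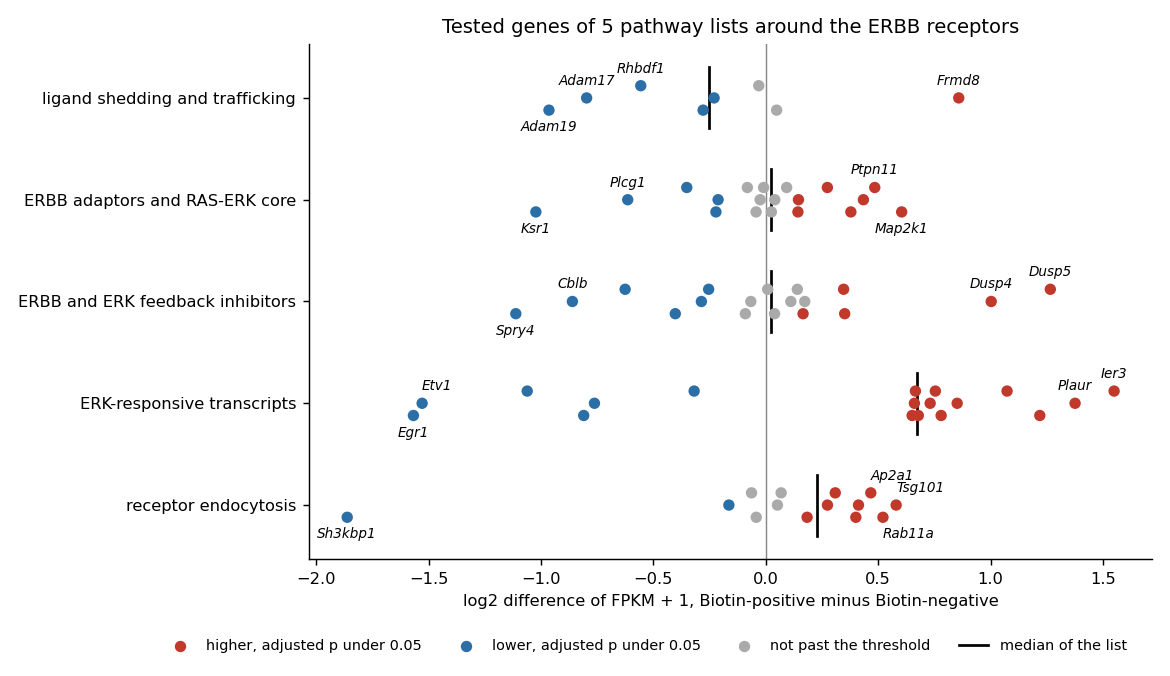
Log2 differences of FPKM + 1, Biotin-positive minus Biotin-negative, for the tested genes of 5 pathway lists (red higher, blue lower, grey not past an adjusted p of 0.05; black bar the median of the list), with the genes of largest change named. The shedding list lies mostly below 0 (median -0.25), the ERK-responsive list mostly above it (median 0.67), and the adaptor and feedback lists are centred near 0.

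Markers of other cell types were read in the same libraries in which the ligands rose. Of 25 epithelial markers, 23 stayed under the filter, and their summed level was 1.73 to 2.52 FPKM in Biotin-positive and 2.39 to 2.59 FPKM in Biotin-negative libraries. The keratin genes Krt7 and Krt8 were the exceptions, with 24.7 ± 1.18 and 20.8 ± 0.355 FPKM in Biotin-positive cells, against 0.236 ± 0.0759 and 0.0362 ± 0.0153 FPKM in Biotin-negative cells (SD, n = 3 each). The epithelial markers Epcam and Cdh1 did not exceed 0.0231 FPKM in any library, and the keratin genes Krt5 and Krt20 were listed at 0 in all 6. Of 9 macrophage and leukocyte markers 4 were tested, and 3 rose and 1 fell. Of all tested genes, 37.8% rose, 36.1% fell and 73.9% passed in either direction. Cd79a, like Krt7 and Krt8, reached 1 FPKM in Biotin-positive libraries alone, so it could enter the test only by being higher there. Cd14 averaged 6.39 ± 0.917 FPKM in Biotin-positive and 3.40 ± 0.674 FPKM in Biotin-negative cells, Lyz2 2.42 ± 0.199 FPKM in Biotin-positive and 1.36 ± 0.164 FPKM in Biotin-negative cells, and Cd79a 2.32 ± 0.453 FPKM in Biotin-positive and 0.106 ± 0.0462 FPKM in Biotin-negative cells (SD, n = 3 each). Cd68 fell, to 7.13 ± 0.805 FPKM in Biotin-positive cells, against 8.59 ± 0.864 FPKM in Biotin-negative cells (SD, n = 3 each). Its groups overlapped, and its limma adjusted p was 0.0402, and 0.0833 with no filter. The list summed to 16.9 to 20.5 FPKM in Biotin-positive and 11.8 to 15.1 FPKM in Biotin-negative libraries, with Adgre1 and Cd3e at 0 in every library and Ptprc at or below 0.0354 FPKM. The 5 endothelial markers summed to less than 1 FPKM in every library. The part of these markers, or of RNA from tumour cells, in the rises of the ligand genes was not tested.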

How the data were processed

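RNA-seq of 3 Biotin-positive and 3 Biotin-negative L929 libraries was used as deposited. The submitters' processing notes name cutadapt 1.9.1, HISAT2 2.2.1, HTSeq 0.6.1 and the build GRCm39. The authors deposited FPKM values, 1 column per library, per the file headers; the program that made them, the denominator, the annotation release and the strandedness are not given in the sources used here. Of 21816 gene identifiers shared with GENCODE vM21 on GRCm38, 99.1% have the same chromosome, start and end in the deposited table, so its coordinates are given as GRCm38, whatever build the reads were aligned to. The number of reads cannot be read from FPKM, so depth is unknown and no interval that needs it is given.

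Genes that reached 1 FPKM in 3 or more libraries were fitted as log2(FPKM + 1) with limma 3.58.1 in R 4.3.3 (eBayes with a trend, two-sided, Benjamini-Hochberg over 11029 genes, threshold 0.05). A difference on this scale understates changes of low genes. Groups came from the labels. Members under the filter got an exact permutation test in scipy 1.17.1 and a fit without the filter. The procedure was tested on simulated data in which 200 of 11029 genes were changed. It recovered 42% of log2 differences of 0.25, 80% of 0.5 and 98% of 1, and 4.19% of its calls were false. The deposited data had a far larger share of passing genes, 73.9%, which the simulation does not cover. Members and lists were chosen with earlier results of these data known. Of each list, up to 4 passing genes with the largest change and the most abundant gene were named, and any other gene named in the text was chosen after its values were seen. Alternatives were other pseudocounts, filters, scalings and eBayes settings, a replicate block, and leaving out each library, with the set of tested genes kept. Promoter windows are from RefSeq (GRCm38.p6). Python 3.11.15, pandas 2.3.3, numpy 2.4.6 and matplotlib 3.10.9 were used.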

Additional observations from a re-analysis of the deposited data

How the results depend on the processing

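Over 16 alternatives the number of all genes higher in Biotin-positive cells ranged from 3420 to 4846, and the number lower from 3172 to 4510, each within 1.5 times the reported 4168 and 3985. Areg, Ereg and Hbegf kept their direction and passed in all 16, Btc and Nrg1 in the 15 that tested them, since a minimum of 5 FPKM leaves both out. Erbb2 passed in 14. It did not pass with an equal FPKM sum per library (log2 difference 0.14, adjusted p = 0.0579), nor without Biotin-positive replicate 3 (0.17, adjusted p = 0.0546), and leaving out each library in turn gave it log2 differences of 0.15 to 0.22. The cause was not tested. The pseudocount set the size of the rises of low genes: with 0.1 FPKM in place of 1 FPKM, the log2 difference was 4.24 for Areg and 4.13 for Nrg1.

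Same-numbered libraries of the groups did not deviate together, with correlations of 0.0371, 0.012 and 0.0143 across genes. Biotin-positive replicates 1 and 2 correlated best with their own number and replicate 3 with another, but no correlation exceeded 0.0371. The numbers were therefore not used as pairs. With a replicate block 4113 genes were higher and 3927 lower, all 6 tested members stayed past the threshold, and the log2 difference of Erbb2 was 0.20 (adjusted p = 0.0157). Of 192 recomputed counts for the pathway lists, 187 stayed within 1.5 times the reported ones. The exceptions with no filter were 1 rise (Nrg2) and 1 fall (Nrg4) among the other EGF family genes. The others were 1 fall in place of 2 among the endocytosis genes without Biotin-negative replicate 1, Biotin-positive replicate 2 or Biotin-positive replicate 3. Unknown depth limits what values under 1 FPKM can show.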
